A study of Homo sapiens with 4 samples.

Results

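The comparison described here set tumors of irradiated mice against tumors of unirradiated mice, at the level of RNA. The irradiated side held the radiation-alone library and the combination library, and the unirradiated side held the control library and the exercise-alone library, so all 4 libraries of the series were used and each side had 1 exercised and 1 sedentary member. Of 38137 genes with deposited read counts, 19393 averaged at least 20 reads over the libraries and were compared. Tumors were xenografts of A549, a human non-small cell lung cancer (NSCLC) line, grown in the flank of BALB/c athymic nude mice, which lack T cells. The mice were male and 6 weeks old, with 5 per group. Each radiation session delivered 2 Gy, and each exercise session was a 30 min run on a treadmill set to 8 m/min. Both were given 3 times a week for 2 weeks, and the control group received neither. Each group had 1 library, and whether a library held 1 tumor or a pool is not given in the sources used here.

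Ionizing radiation breaks DNA, and cells with working p53 respond by stabilizing this transcription factor. p53 induces p21 (CDKN1A), which keeps the RB family of proteins active. The complexes these proteins form with E2F factors then hold down genes of DNA replication and mitosis. Irradiated tumor cells can also raise interferon-stimulated genes and antigen presentation genes.

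Total assigned reads were 33432637 to 35408705 per library. Values are CPM, read counts relative to the TMM-scaled total of their library, a difference is the irradiated mean minus the unirradiated mean on the log2 CPM scale, and its error is the SE over the 2 libraries of each side. A gene is called separated when both values of one side lay above both values of the other. This has no p-value, because an exact permutation test of 2 against 2 libraries cannot go below 0.33 (two-sided). The test across all genes was the quasi-likelihood test of edgeR with Benjamini-Hochberg adjustment, and a gene rose or fell where its adjusted p was under 0.05. The 2 libraries of a side came from different treatment groups, so the difference between them, exercise included, stood in for the spread between replicates, and p-values measure only that spread. Markers of A549 were high in all libraries, such as KRT8 at 3190 to 3840 CPM and AKR1B10 at 1640 to 1900 CPM. The leukocyte gene PTPRC had 7 to 15 reads and the alveolar gene SFTPC had 0 to 3 reads.

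Of the 19393 genes, 5086 (26.2%) were separated with the irradiated side higher and 5349 (27.6%) with it lower. By the edgeR test, 929 genes (4.79%) rose and 582 (3.0%) fell, and all 1511 of these were separated. Higher genes made up 61.5% of those called, and 45.8% with total-count scaling (757 rose and 895 fell). Differences of at least 2-fold were seen in 358 separated genes above and 260 below. The median difference over all genes was -0.014. Counts of calls depended on single libraries: 357 genes rose and 62 fell without the combination library, 556 and 160 without radiation alone, 1038 and 929 without control, and 634 and 268 without exercise alone. When 1 irradiated library was left out, the spread came from control and exercise alone, and the lone library was assumed to vary like them.

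The sedentary pair (radiation alone against control) and the exercised pair (combination against exercise alone) share no library. In the sedentary pair, 366 genes (1.89%) were at least 2-fold higher and 174 (0.897%) at least 2-fold lower. The exercised pair had 566 genes (2.92%) higher and 593 (3.06%) lower by this measure. The pairs shared 198 of the higher genes, which is 54.1% of the sedentary and 35% of the exercised list. They shared 85 of the lower genes, which is 48.9% and 14.3% of the lists. Only 8 genes were 2-fold higher in one pair and 2-fold lower in the other. Across genes, which are not independent replicates, the log2 ratios of the pairs had Pearson's r of 0.59, or 0.69 over the 15385 genes that averaged at least 100 reads.

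**Figure D1:**
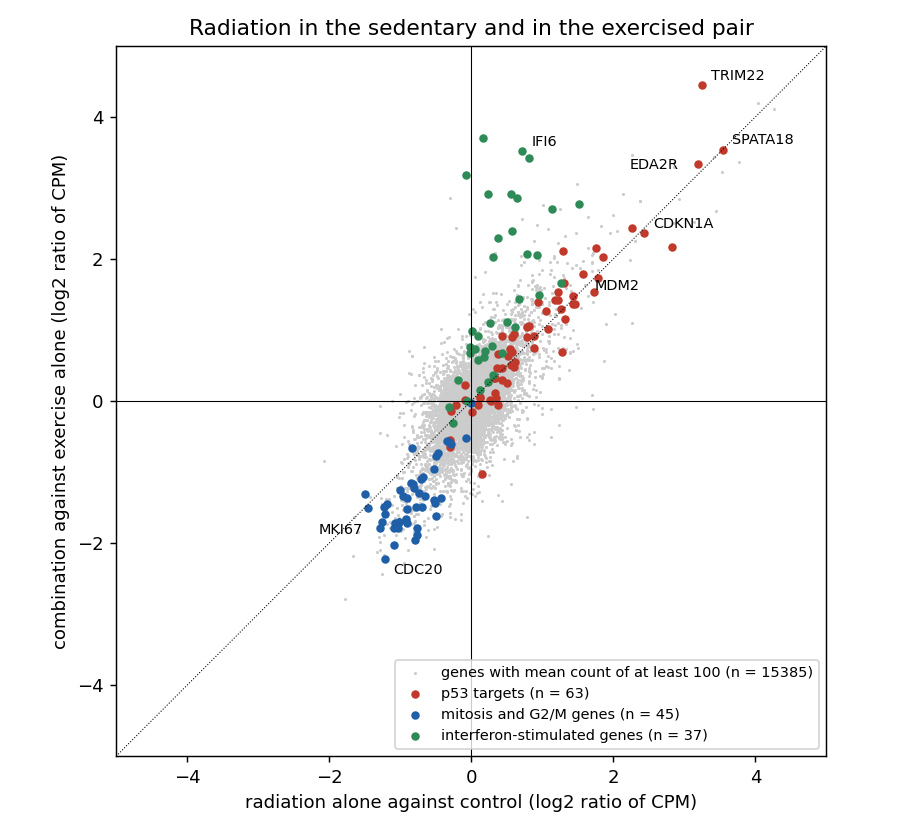
Log2 ratio of CPM in the sedentary pair (x axis) and in the exercised pair (y axis), 1 point per gene, with 3 groups of genes in color and a dotted line of equal ratios; 4 genes of a myosin locus lie outside the axes. The p53 targets lie along the line in the upper right, mitotic genes lie in the lower left with a median of -0.82 in the sedentary and -1.43 in the exercised pair, and interferon-stimulated genes lie near 0 in the sedentary pair (median 0.29) but higher in the exercised pair (median 1.10).

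The largest rises outside muscle genes were in PTCHD4, a patched-domain membrane protein, in uncharacterized transcripts and in members of the p53 target lists used here. PTCHD4 (chr6:47856673-48111197, RefSeq GRCh38.p14) was at 1.32 CPM in control and 1.10 with exercise alone, against 25.5 with radiation alone and 19.2 in the combination. Its nearest values on the 2 sides were 14.6-fold apart (exact 95% interval 10.8 to 20, counting error only), and the log2 difference was 4.18 ± 0.24 (adjusted p = 2e-06). LOC112267916, for which the annotation used here gave no position, was at 7.59 and 6.22 CPM on the unirradiated side and at 125 and 114 CPM on the irradiated side. The long noncoding RNAs LOC105377329 (chr4:89551390-89645446) and LOC101927209 (chr4:49161270-49208235) had log2 differences of 4.02 ± 0.24 and 3.57 ± 0.24. For LOC102723769 (chr22:11897406-11956534) the log2 difference was 3.43 ± 0.13, and for LOC105379854 it was 3.38 ± 0.13. LOC101927209 had 14 and 19 reads in the unirradiated libraries, so it passed the minimum count only through the irradiated side. PTCHD4 (47 and 38 unirradiated reads) and LOC105377329 (33 and 37) averaged the 100 reads needed for naming only through the irradiated side. The irradiated values of each of these 6 genes were at least 9.39-fold above the unirradiated ones, and each gene rose with any 1 library left out.

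The largest falls were led by TINAGL1, a secreted matrix protein, and by genes of mitosis. TINAGL1 (chr1:31576515-31587686) was at 17.2 CPM in control and 24.6 with exercise alone, against 5.0 with radiation alone and 3.54 in the combination, a log2 difference of -2.28 ± 0.36 (adjusted p = 0.0009). The other genes of the 12 largest falls fall into a few kinds. PIF1 is a DNA helicase (-1.92 ± 0.35), TROAP, CDC20, KIF18B, DEPDC1 and ESPL1 act in mitosis (-1.73 to -1.54), and KRT14 is a basal keratin (-1.68 ± 0.30). CACNG4, a calcium channel subunit, SYNDIG1, a synaptic membrane protein, CDH19, a cadherin, and ANO1, a chloride channel, had differences of -1.72 to -1.56. SYNDIG1 held the tightest values: 8.85 and 9.20 CPM unirradiated, against 2.82 and 2.96 CPM irradiated. TINAGL1, PIF1, CACNG4, KRT14 and SYNDIG1 fell with any 1 library left out. TROAP, CDC20, KIF18B, DEPDC1, ESPL1, CDH19 and ANO1 each lost the call in at least 1 omission.

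Targets of p53 rose in most cases. Of 63 members tested in 3 lists, 51 were separated higher (against 26.2% of all genes) and 2 lower (against 27.6%). Of the 63, 44 rose (69.8%, against 4.79% of all genes tested) and 19 did not pass the test. The median log2 difference was 0.74. The list of arrest and feedback targets had 14 of 20 members that rose, the list of cell death targets 12 of 19, and the list of DNA repair and metabolism targets 18 of 24. Their medians in the sedentary and exercised pairs were 0.88 and 0.98, 0.62 and 0.74, and 0.57 and 0.69. With any 1 library left out, 12, 10 and 12 of the called members of these lists remained called.

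Among arrest and feedback targets, CDKN1A was at 60.6 CPM in control and 79.6 with exercise alone, against 327 for radiation alone and 408 for the combination. The log2 difference was 2.39 ± 0.25 (adjusted p = 0.00012). MDM2, the ubiquitin ligase that degrades p53, was at 91.0 and 83.7 CPM in control and exercise alone and at 272 and 290 CPM in radiation alone and the combination (1.69 ± 0.08, adjusted p = 6.4e-06). Neither gene had overlapping sides, and the 2 libraries of a side lay close together. ZMAT3, an RNA-binding protein, was at 14.5 and 13.6 CPM against 52.5 and 55.7 CPM (1.94 ± 0.06). The stress proteins SESN1 and SESN2 rose by 1.48 ± 0.13 and 1.30 ± 0.13, the antiproliferative gene BTG2 by 1.41 ± 0.10, and RPS27L, a ribosomal protein paralog, by 1.38 ± 0.17. The feedback phosphatase PPM1D rose by 0.82 ± 0.13 and the cyclin CCNG1 by 0.92 ± 0.11. Other members had overlapping sides, such as MDM4, which restrains p53, at 72.5 to 80.4 CPM, and E2F7, a repressor of the E2F family, at 4.43 to 9.03 CPM.

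Among cell death targets, SPATA18, which acts in mitochondrial quality control, had 4.59 and 3.85 CPM unirradiated against 54.1 and 44.9 CPM irradiated (3.55 ± 0.18, adjusted p = 4.9e-07). EDA2R, a receptor of the TNF receptor family, was at 8.85 and 7.67 CPM against 80.8 and 77.7 CPM (3.26 ± 0.11, adjusted p = 1e-07). Both genes were separated about as widely in the sedentary pair (3.55 and 3.19) as in the exercised pair (3.54 and 3.34). The death receptor FAS was at 7.42 and 7.84 CPM against 35.7 and 42.7 CPM (2.35 ± 0.14). BAX, which permeabilizes mitochondria, was at 41.5 and 43.6 CPM against 112 and 122 CPM (1.46 ± 0.07), and PHLDA3, an inhibitor of AKT signaling, rose by 1.40 ± 0.11. CASP1, an inflammatory caspase, rose from low levels of 0.392 and 0.376 CPM to 0.978 and 1.68 CPM (adjusted p = 0.024). It passed the minimum count only through the irradiated side. BBC3 (PUMA), which promotes apoptosis, was at 21.1 and 21.9 CPM against 44.5 and 44.6 CPM (1.05 ± 0.03), the nuclease AEN rose by 1.28 ± 0.08 and the death receptor TNFRSF10B by 0.58 ± 0.07. Some members gave overlapping sides: PMAIP1 (NOXA) had 8.91 to 12.7 CPM, TP53I3 had 111 to 130 CPM and PERP had 297 to 345 CPM over the 4 libraries.

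Among repair and metabolism targets, TRIM22, which is also an interferon-inducible antiviral protein, was at 4.26 CPM in control and 2.0 with exercise alone, against 40.5 with radiation alone and 43.9 in the combination. Its log2 difference was 3.85 ± 0.55 (adjusted p = 0.0033), and the call was lost without the combination (adjusted p = 0.086) or radiation alone (0.059). GDF15, a secreted stress cytokine, was at 40.3 and 53.5 CPM against 139 and 178 CPM (1.76 ± 0.27, adjusted p = 0.0019). DDB2, a sensor of damaged DNA, was at 32.2 and 41.3 CPM against 107 and 120 CPM (1.63 ± 0.20). The lipid genes ABCA12, a transporter, and ACER2, a ceramidase, rose by 2.50 ± 0.25 and 1.96 ± 0.15, and FDXR, a mitochondrial ferredoxin reductase, by 1.32 ± 0.17. The cytokine LIF and the glutaminase GLS2 had overlapping sides, and PRDM1 and FERMT3 were the 2 members separated lower (adjusted p = 0.30 for each).

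**Figure D2:**
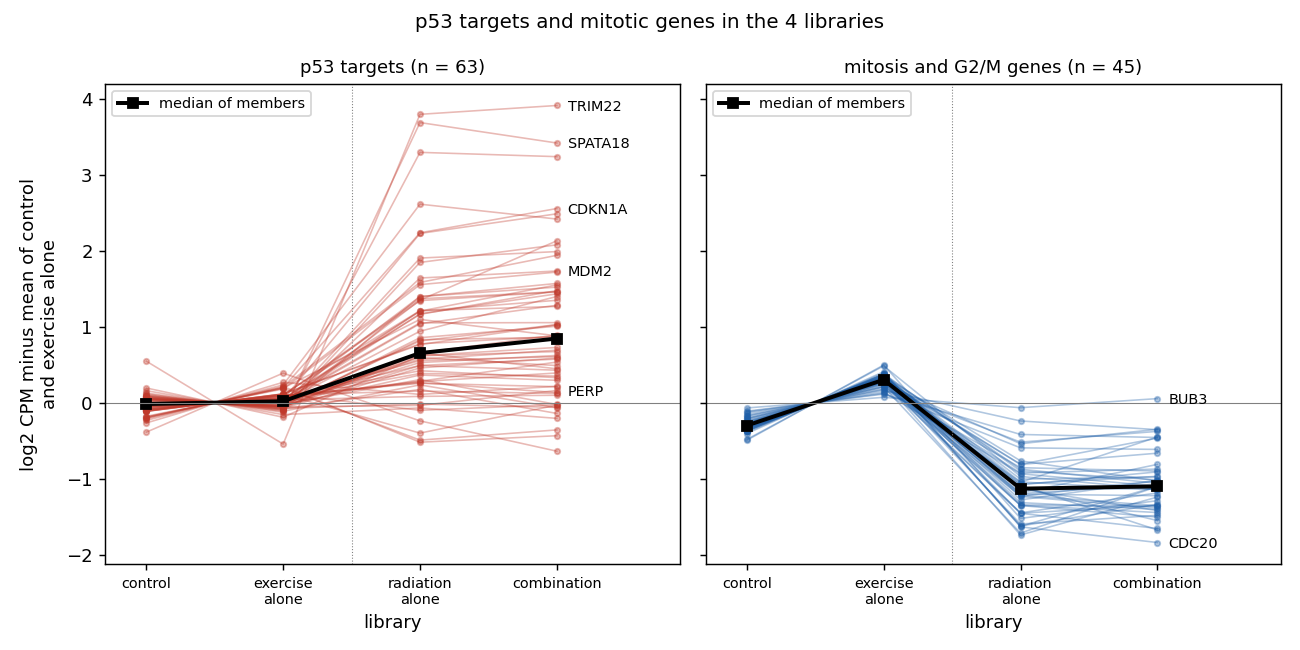
Log2 CPM of 63 p53 targets (left) and 45 mitosis and G2/M genes (right) in the 4 libraries, each gene set to the mean of its control and exercise-alone values; thin lines are genes and black squares are medians. TRIM22 and SPATA18 lie near the top of the p53 panel, while in the mitosis panel every gene lies higher with exercise alone than in control and 44 of 45 lie lower in both irradiated libraries than in both unirradiated ones.

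Genes of mitosis and the G2/M transition were lower in both irradiated libraries almost without exception. Of 45 members tested, 44 were separated lower (against 27.6% of all genes), 34 fell (75.6%, against 3.0%) and 11 did not pass the test, with a median of -1.13. The exercise-alone library was above control for 45 of 45 members (50.4% of all genes), which was not tested, and the median was -0.82 in the sedentary pair and -1.43 in the exercised pair. The count of calls turned on single libraries. Without the combination library only 2 members were called, and without radiation alone 5, while 44 were called without control and 31 without exercise alone.

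CDC20, the activator of the anaphase-promoting complex, was at 3.70 CPM in control and 6.51 with exercise alone, against 1.58 with radiation alone and 1.37 in the combination (-1.73 ± 0.42, adjusted p = 0.0062). ESPL1, the separase that cuts cohesin, was at 15.3 and 23.3 CPM against 6.24 and 6.75 CPM (-1.54 ± 0.31, adjusted p = 0.0026). The centromere genes CENPA, NDC80 and CENPF fell by 1.48 ± 0.39, 1.48 ± 0.37 and 1.43 ± 0.28 on the log2 scale. MKI67, the gene of the proliferation marker Ki-67, was at 104 and 174 CPM unirradiated and at 49.0 and 42.7 CPM irradiated. These values did not overlap, and the log2 difference was -1.55 ± 0.39, but the adjusted p was 0.052. BUB3, a spindle checkpoint protein, was the 1 member with overlapping sides, at 76.5 to 84.3 CPM.

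Promoters of mitotic genes often carry a cell cycle homology region (CHR), with the core TTTGAA, and CCAAT boxes bound by NF-Y. In windows from 250 bases before to 50 after the gene start (RefSeq, GRCh38.p14), both strands were searched, and the motifs do not overlap in letters. The CHR core was found in 25 of 38 promoters of the mitosis list (65.8%), in 22.9% of promoters of genes that fell, in 9.34% of those that rose, in 11.1% of promoters of genes tested and in 15.4% of all 27303 promoters. Both motifs together were found in 55.3% of the mitosis promoters, in 4.46% of those of genes tested and in 6.08% of all promoters. The list of replication genes, of which 15 of 39 fell, had the CHR core in 1 of 35 promoters. The promoters of CDC20 (chr1:43358731-43359030, plus strand), ESPL1 (chr12:53268049-53268348, plus strand) and CENPA (chr2:26785806-26786105, plus strand) are shown as examples that hold both motifs, with matches in capitals (TTTGAA or TTCAAA for the CHR core, CCAAT or ATTGG for the CCAAT box).
CDC20: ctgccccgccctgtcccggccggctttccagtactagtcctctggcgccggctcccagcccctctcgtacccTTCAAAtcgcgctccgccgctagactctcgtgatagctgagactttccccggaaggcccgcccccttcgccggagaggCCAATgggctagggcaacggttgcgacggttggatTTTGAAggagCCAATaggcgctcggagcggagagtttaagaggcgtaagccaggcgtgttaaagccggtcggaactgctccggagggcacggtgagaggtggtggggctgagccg
ESPL1: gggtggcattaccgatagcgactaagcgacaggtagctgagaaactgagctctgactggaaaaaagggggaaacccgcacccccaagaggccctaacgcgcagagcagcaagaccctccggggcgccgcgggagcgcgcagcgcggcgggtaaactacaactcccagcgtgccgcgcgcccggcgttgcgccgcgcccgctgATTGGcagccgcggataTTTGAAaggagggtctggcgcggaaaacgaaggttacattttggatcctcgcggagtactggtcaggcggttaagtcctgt
CENPA: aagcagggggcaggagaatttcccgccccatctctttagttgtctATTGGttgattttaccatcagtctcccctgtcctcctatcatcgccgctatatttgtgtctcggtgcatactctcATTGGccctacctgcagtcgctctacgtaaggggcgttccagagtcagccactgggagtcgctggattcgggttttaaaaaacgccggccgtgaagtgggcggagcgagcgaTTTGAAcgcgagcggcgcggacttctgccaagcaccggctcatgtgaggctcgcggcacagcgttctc
The CHR core of ESPL1 begins 31 bases before the gene start and that of CENPA 18 bases before it, and CDC20 holds cores 65 and 178 bases before its start. These matches are a description of the letters, and binding was not measured.

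Genes of the G1/S transition and DNA replication were mostly lower on the irradiated side too. Of 39 members, 33 were separated lower (84.6%, against 27.6% of all genes) and 1 higher, 15 fell (38.5%, against 3.0%) and 24 did not pass the test, with a median of -0.52. CDC45, which activates the replicative helicase, was at 5.80 and 8.25 CPM unirradiated against 2.96 and 2.50 CPM irradiated (-1.34 ± 0.28, adjusted p = 0.0054). MCM10 and CLSPN, which act at the replication fork, fell by 1.22 ± 0.40 and 1.20 ± 0.29, RRM2, the ribonucleotide reductase subunit, by 1.06 ± 0.27, and the licensing factor CDT1 by 0.92 ± 0.25 on the log2 scale. UHRF1, which maintains DNA methylation, fell by 0.89 ± 0.34. The p53-inducible clamp PCNA had overlapping sides, at 61.6 to 82.6 CPM. TYMS, thymidylate synthase, was the 1 member separated higher, at 46.2 and 52.9 against 62.2 and 60.0 CPM (adjusted p = 0.082). Without the combination library 0 members were called by edgeR (27 had an unadjusted p under 0.05 with all libraries, and DESeq2 called 20), without radiation alone 2, without exercise alone 5 and without control 24.

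DNA repair and damage checkpoint genes were lower in part. Of 40 members, 25 were separated lower and 1 higher, 13 fell and 27 did not pass the test (median -0.31). Of all members, 62.5% were separated lower and 32.5% fell, against 27.6% and 3.0% of all genes. The helicase BLM was at 11.1 and 16.3 CPM unirradiated against 6.15 and 5.53 CPM irradiated (-1.21 ± 0.28, adjusted p = 0.0047). RAD51AP1 and XRCC2 of homologous recombination fell by 1.19 ± 0.31 and 0.92 ± 0.36, the Fanconi genes FANCB and BRIP1 by 1.03 ± 0.29 and 0.84 ± 0.21, and the nuclease EXO1 by 0.90 ± 0.24 on the log2 scale. Genes of end joining and break sensing were mixed. XRCC5 (Ku80), RAD50 and TP53BP1 had overlapping sides, at 150 to 171, 111 to 120 and 95 to 102 CPM. The kinase PRKDC (210 and 235 against 182 and 176 CPM, adjusted p = 0.084) and the adaptor MDC1 (adjusted p = 0.070) were separated lower without passing the test, and the histone H2AX fell (-0.55 ± 0.22, adjusted p = 0.042). LIG4, the end-joining ligase, was the 1 member separated higher (19 to 20.6 against 21 to 21.7 CPM, adjusted p = 0.60). Members called numbered 0 without the combination library, 2 without radiation alone, 4 without exercise alone and 17 without control.

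Other cell cycle inhibitors did not follow CDKN1A. In a list of CDK inhibitors, RB family genes and lamins, 17 of 18 members were tested, with a median of -0.08. CDKN1A was the 1 that rose (5.88%, against 4.79% of all genes), and 3 fell (17.6%, against 3.0%). LMNB1, the lamin whose loss accompanies senescence, was at 23.7 CPM in control and 36.6 with exercise alone, against 10.4 with radiation alone and 14 in the combination (-1.29 ± 0.38, adjusted p = 0.030). LMNB2 and the RB relative RBL1 both fell by 0.55 on the log2 scale (SE 0.13 and 0.09). CDKN1B (p27) had overlapping sides of 74.2 to 111 CPM, RB1 of 54.4 to 61.6 CPM and E2F4 of 49.1 to 55.7 CPM. CDKN2C was separated lower (25.5 and 23.1 against 18.3 and 21.3 CPM, adjusted p = 0.17), and CDKN2B had 0 reads in each library, which allows up to 0.0916 CPM. Of the 4 calls in this list, CDKN1A alone held through each omission of 1 library.

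**Figure D3:**
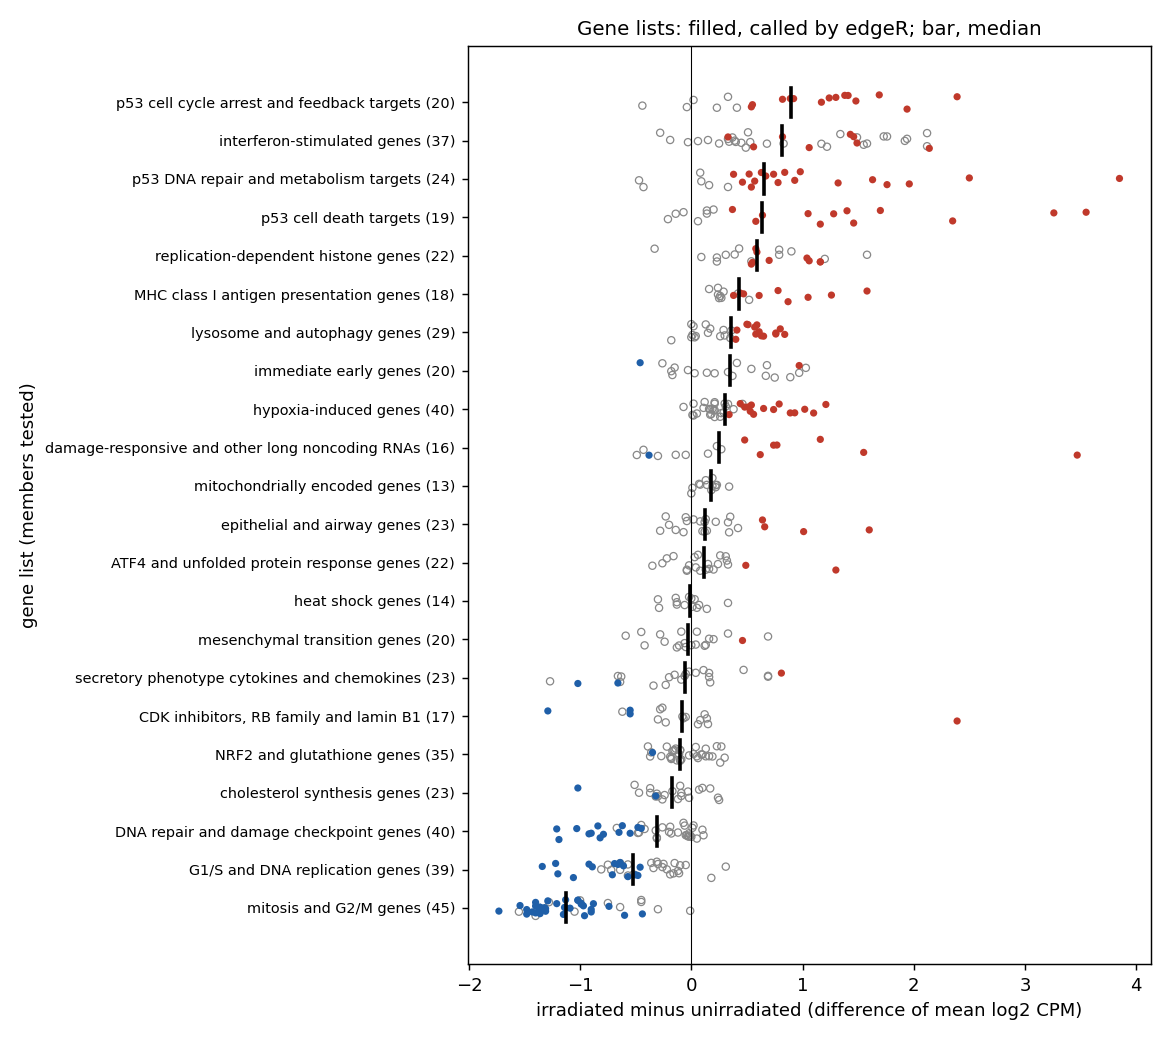
Log2 differences (irradiated minus unirradiated, x axis) of the members of 22 gene lists (y axis, number tested in parentheses), ordered by median. Filled points passed the edgeR test (red rose, blue fell), open points did not, and black bars are medians, from -1.13 for mitosis to 0.90 for p53 arrest targets.

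Interferon-stimulated genes were higher on the irradiated side in most cases, with a wide spread. Of 37 members, 29 were separated higher (78.4%, against 26.2% of all genes) and 2 lower, with a median of 0.82, but only 8 rose (21.6%, against 4.79%) and 29 did not pass the test. The unirradiated libraries differed: exercise alone was below control for 35 of 37 members (49.6% of all genes), which was not tested. The median was 0.29 in the sedentary pair and 1.10 in the exercised pair. IFI6, a mitochondrial interferon-induced protein, was at 47.8 CPM in control and 11.5 with exercise alone, against 79.0 for radiation alone and 132 for the combination, and its log2 difference of 2.12 ± 1.09 had an adjusted p of 0.45. The count of calls turned on single libraries, with 0 without the combination, 1 without radiation alone, 11 without exercise alone and 28 without control. For comparison, 15 members had an unadjusted p under 0.05 and DESeq2 called 9 with all libraries.

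The 8 members that rose were CMPK2, IFIT2, MX2, OASL, IFIT3, HERC6, SAMD9 and IFITM2. Of these, MX2 averaged under 20 reads on the unirradiated side and passed the minimum count only through the irradiated side. CMPK2, a mitochondrial nucleotide kinase, was at 0.924 CPM in control and 0.463 with exercise alone, against 2.67 with radiation alone and 3.24 in the combination (2.14 ± 0.51, adjusted p = 0.0048). IFIT3, which binds viral RNA complexes, was at 14.5 and 9.58 CPM against 23.0 and 26.0 CPM (1.06 ± 0.31, adjusted p = 0.013). SAMD9, an antiviral factor, was at 28.5 and 22.6 CPM against 38.7 and 35.9 CPM (0.56 ± 0.17). XAF1, BST2, OAS2 and IFIT1 had differences of 1.76 to 2.12 with SE of 0.79 to 1.53, and their adjusted p was 0.27 to 0.49. The most-read members that were not separated were OAS1 at 242 to 274 CPM, OAS3 at 148 to 203 CPM and STAT2 at 92.8 to 118 CPM. ISG20 and EPSTI1 were the 2 members separated lower (adjusted p of 0.24 and 0.58).

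The interferon-stimulated response element (ISRE) is bound by the factor complex that interferon activates, and its core was searched on both strands as GAAA, any 2 bases and GAAA. It was found in 17 of 28 promoters of the interferon list (60.7%), against 3.65% of all promoters, 3.08% of promoters of genes tested, 4.59% of promoters of genes that rose and 2.08% of those that fell. The promoters of IFIT3 (chr10:89327747-89328046, plus strand) and SAMD9 (chr7:93117930-93118229, minus strand) are shown, with the core in capitals. These were the only members that rose for which a core was found, and the other promoters with a core belonged to members that were not called. Promoters of 28 of the 37 members were searched.
IFIT3: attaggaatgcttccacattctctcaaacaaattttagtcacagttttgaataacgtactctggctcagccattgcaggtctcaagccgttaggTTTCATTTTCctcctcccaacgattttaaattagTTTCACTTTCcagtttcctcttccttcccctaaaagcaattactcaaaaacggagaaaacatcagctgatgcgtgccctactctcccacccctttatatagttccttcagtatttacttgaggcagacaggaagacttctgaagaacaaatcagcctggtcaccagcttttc
SAMD9: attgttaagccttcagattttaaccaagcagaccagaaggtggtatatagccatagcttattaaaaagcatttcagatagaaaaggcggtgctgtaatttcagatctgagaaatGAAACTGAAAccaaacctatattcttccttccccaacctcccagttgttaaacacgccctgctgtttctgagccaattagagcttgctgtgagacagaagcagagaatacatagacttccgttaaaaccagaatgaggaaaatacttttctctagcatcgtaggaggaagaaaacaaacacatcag
IFIT3 holds a pair of cores on the minus strand, beginning 156 and 122 bases before the gene start, and SAMD9 holds 1 core beginning 136 bases before it.

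Antigen presentation genes of MHC class I were higher in both irradiated libraries for all 18 members tested. Of these, 9 rose (50.0%, against 4.79% of all genes) and 9 did not pass the test, with a median of 0.43. HLA-B, a class I heavy chain, was at 57.7 CPM in control and 43.4 with exercise alone, against 129 with radiation alone and 175 in the combination (1.58 ± 0.30, adjusted p = 0.0067). B2M, the light chain of all class I molecules, was at 293 and 268 CPM against 524 and 644 CPM (1.05 ± 0.16, adjusted p = 0.0009). The combination held the highest value of both genes and exercise alone the lowest. HLA-C, HLA-F and HLA-E rose by 1.26 ± 0.26, 0.78 ± 0.19 and 0.61 ± 0.16, and because these genes are near-identical in part, reads may have been split between them. The peptide transporter TAP1 rose by 0.47 ± 0.13, and NLRC5, the transactivator of class I genes, had the smallest difference of the list (0.16 ± 0.05, adjusted p = 0.47). Without the combination library 4 members were called, and without exercise alone 5, and HLA-B, HLA-C and B2M were among those called with any 1 library left out.

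**Figure D4:**
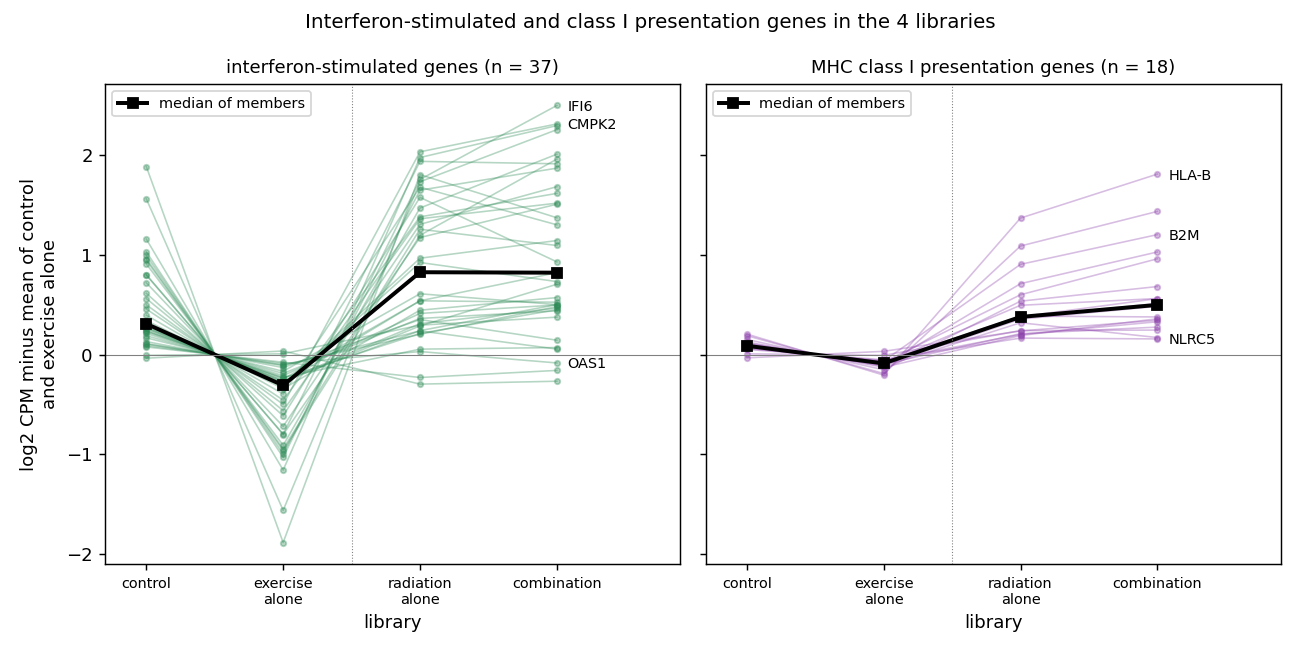
Log2 CPM of 37 interferon-stimulated genes (left) and 18 MHC class I presentation genes (right) in the 4 libraries, each gene set to the mean of its control and exercise-alone values; thin lines are genes and black squares are medians. Exercise alone lies below control for 35 of the 37 interferon genes, and all 18 class I genes lie higher in both irradiated libraries.

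Cytokines and chemokines of the secretory phenotype of senescent cells showed no common direction. Of 30 listed members 23 were tested, 4 were separated higher (17.4%, against 26.2% of all genes) and 5 lower (21.7%, against 27.6%). In this list 1 rose (4.35%, against 4.79%) and 2 fell (8.7%, against 3.0%), with a median of -0.06. IGFBP3, which binds insulin-like growth factors, was at 658 and 564 CPM unirradiated against 937 and 1220 CPM irradiated (0.81 ± 0.22, adjusted p = 0.0082). INHBA, an activin subunit, fell by 1.02 ± 0.22 and EREG, an EGF receptor ligand, by 0.66 ± 0.22 on the log2 scale. The neutrophil chemokine CXCL5 had overlapping sides of 516 to 647 CPM. IL6 had 0 to 2 reads per library and was not tested. None of the 3 calls of this list (IGFBP3, INHBA and EREG) held through each omission of 1 library.

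Hypoxia-induced genes were mostly higher on the irradiated side. Of 40 members, 28 were separated higher (70.0%, against 26.2% of all genes), 15 rose (37.5%, against 4.79%) and 25 did not pass the test, with medians of 0.35 in the sedentary pair and 0.23 in the exercised pair. CA9, the membrane carbonic anhydrase, was at 38.8 CPM in control and 36.1 with exercise alone, against 69.8 with radiation alone and 92.6 in the combination (1.10 ± 0.21, adjusted p = 0.0019). EGLN3, a prolyl hydroxylase of HIF, was at 98.9 and 104 CPM against 191 and 221 CPM (1.02 ± 0.11), and the lipase inhibitor ANGPTL4 at 46.0 and 47.9 CPM against 85.7 and 88.7 CPM (0.89 ± 0.04). In these genes control and exercise alone lay close together, apart from both irradiated libraries. STC2, HK2 and ADM (a secreted glycoprotein, a hexokinase and a vasodilator peptide) rose by 1.21 ± 0.25, 0.93 ± 0.15 and 0.79 ± 0.28. HIF1A was at 154 and 181 CPM against 218 and 197 CPM (0.31 ± 0.14, adjusted p = 0.11), so the sides did not overlap but the test was not passed. The glycolytic enzyme ENO1 (547 to 628 CPM), the clock-linked repressor BHLHE40 (253 to 386 CPM) and the mTOR inhibitor DDIT4 (259 to 411 CPM) had overlapping sides. Without the combination library 9 members were called, and 6 remained called with any 1 library left out, CA9, EGLN3, HK2 and ANGPTL4 among them.

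Lysosome and autophagy genes were higher as well. Of 29 members tested, 22 were separated higher (75.9%, against 26.2% of all genes) and 1 lower, 14 rose (48.3%, against 4.79%) and 15 did not pass the test, with a median of 0.36. CTSD, an aspartic protease, was at 319 and 310 CPM unirradiated against 511 and 555 CPM irradiated (0.76 ± 0.06, adjusted p = 0.0023). CTSA, CTSS, HEXA and CTSH, which are proteases and a hexosaminidase subunit, rose by 0.84 ± 0.11, 0.76 ± 0.14, 0.65 ± 0.13 and 0.63 ± 0.04. The autophagy gene ATG7 (123 to 130 CPM), the cholesterol transporter NPC1 (38.3 to 44.0 CPM) and the galactosidase GLA (41.7 to 47.8 CPM) had overlapping sides. Leaving out the combination library left 7 members called.

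Polyadenylated transcripts of replication-dependent histone genes were higher on the irradiated side, unlike replication genes. Most histone mRNA of dividing cells ends in a stem loop without a poly(A) tail, so a polyA-selected library holds a small part of it. Of 55 listed genes 22 were tested, 19 were separated higher (86.4%, against 26.2% of all genes), 9 rose (40.9%, against 4.79%) and 13 did not pass the test, with a median of 0.59. Of those tested, 2 averaged under 20 reads on the unirradiated side and passed the minimum through the irradiated side. The linker histone H1-2 was at 16.1 and 14.8 CPM unirradiated against 27.9 and 37.3 CPM irradiated (1.06 ± 0.22, adjusted p = 0.0023). H2AC13, H2BC4 and H4C8 rose by 1.16 ± 0.16, 1.16 ± 0.25 and 1.04 ± 0.21, and reads of these near-identical genes may have been split between copies. H2BC6 and H4C5 had differences of 1.58 ± 0.60 and 1.20 ± 0.40 at under 2 CPM and did not pass the test. Only 2 members were called without the combination library.

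A list of damage-responsive and other long noncoding RNAs had 16 members tested. Of these, 10 were separated higher (62.5%, against 26.2% of all genes) and 4 lower (25.0%, against 27.6%). In this list 7 rose (43.8%, against 4.79%), 1 fell (6.25%, against 3.0%) and 8 did not pass the test. PURPL, a p53-regulated RNA, was at 83.5 and 76.3 CPM unirradiated against 272 with radiation alone and 201 in the combination (1.55 ± 0.23, adjusted p = 0.00053). PINCR, which is induced by p53, was at 0.196 and 0.145 CPM against 2.82 and 1.44 CPM (3.47 ± 0.52) and passed the minimum count only through the irradiated side. MIR34AHG, the host transcript of miR-34a, rose by 1.16 ± 0.13, TP53TG1 by 0.77 ± 0.05, PVT1 by 0.62 ± 0.09 and MEG3 by 0.74 ± 0.26. Radiation alone held the higher value of PURPL and PINCR, while MIR34AHG was higher in the combination (46.1 against 38.6 CPM). The host gene SNHG1 fell by 0.38 ± 0.12 on the log2 scale. Without radiation alone 4 members were called as higher.

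Some pathways had small median differences (-0.17 to 0.11). Of 35 NRF2 and glutathione genes tested, which are high in A549 cells because KEAP1 is mutated, 1 fell (2.86%, against 3.0% of all genes). This was OSGIN1 (-0.35 ± 0.09, adjusted p = 0.046). Of the list, 5 members were separated higher (14.3%, against 26.2% of all genes) and 12 lower (34.3%, against 27.6%). The aldo-keto reductases AKR1C1 and AKR1C2 were separated lower by 0.39 ± 0.05 and 0.36 ± 0.12 and did not pass the test (adjusted p = 0.060 and 0.14). NQO1, FTL and FTH1 (a quinone reductase and the ferritin chains) had overlapping sides. Among 23 cholesterol synthesis genes, the synthase FDPS was among those that fell (-0.32 ± 0.04), and 10 members were separated lower. Of 22 genes of ATF4 and the unfolded protein response, 12 were separated higher (54.5%, against 26.2%) and 3 lower (13.6%, against 27.6%). SESN2 and the chaperone DNAJB9 (0.49 ± 0.11) were the 2 that rose (9.09%, against 4.79%). SHMT2, of serine metabolism, had overlapping sides of 61.5 to 66.3 CPM. Of 14 heat shock genes 1 was separated higher (7.14%, against 26.2%) and 2 lower (14.3%, against 27.6%). For this list edgeR and DESeq2 called 0, and 1 had an unadjusted p under 0.05. HSPA8 was at 688 to 823 CPM and HSP90AA1 at 623 to 816 CPM.

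Immediate early genes, which respond to stimuli within minutes, were separated higher or called about as often as all genes, and separated lower less often. Of 20 members, 6 were separated higher (30%, against 26.2%) and 2 lower (10%, against 27.6%). In this list 1 rose (5.0%, against 4.79%) and 1 fell (5.0%, against 3.0%), with a median of 0.35. Exercise alone was above control for 19 of 20 members (50.4% of all genes) and the combination above radiation alone for 19 of 20 (50.1%), differences between single libraries that were not tested. FOS was at 59.8 CPM in control and 144 with exercise alone, against 144 for radiation alone and 231 for the combination, and its log2 difference of 0.97 ± 0.72 had an adjusted p of 0.57. IER5, a p53-linked member, was the 1 that rose, at 30.3 and 29.8 CPM against 54.5 and 64.0 CPM (0.97 ± 0.12, adjusted p = 0.00039). MYC fell, at 97.9 and 109 CPM against 70.9 and 79.1 CPM (-0.46 ± 0.11, adjusted p = 0.016). JUN (97.2 to 181 CPM), JUNB (128 to 206 CPM) and KLF6 (121 to 172 CPM) had overlapping sides.

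Of 23 epithelial and airway genes tested, 11 were separated higher (47.8%, against 26.2% of all genes), 3 lower and 4 rose (17.4%, against 4.79%), with a median of 0.12. LCN2, an iron-sequestering protein, was at 60.1 CPM in control and 42.2 with exercise alone, against 135 with radiation alone and 174 in the combination (1.6 ± 0.31, adjusted p = 0.0084). The trefoil peptides TFF3 and TFF1 rose by 1.01 ± 0.25 and 0.64 ± 0.18 and AGR2, which folds mucins, by 0.66 ± 0.09. The mucins MUC5AC (7800 to 10400 CPM) and MUC5B (6830 to 8870 CPM) had overlapping sides. These 4 calls fell to 0 by edgeR without the combination library and to 2 without radiation alone, while DESeq2 called 8 with all libraries and 8 had an unadjusted p under 0.05. Of 20 genes of the mesenchymal transition, ACTA2, smooth muscle actin, rose (0.46 ± 0.16, adjusted p = 0.037), and the filament gene VIM had overlapping sides of 929 to 1140 CPM. Of 13 mitochondrially encoded genes, 6 were separated higher (46.2%, against 26.2% of all genes), all of them subunits of complex I. The edgeR test called 0 of the 13 (DESeq2 called 1, and 1 had an unadjusted p under 0.05). ND6 had the tightest difference, at 673 and 668 CPM against 845 and 857 CPM (0.34 ± 0.01, adjusted p = 0.088).

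Some marker genes of other cell types also differed between the sides, not all in one direction. Mouse reads could enter these values by matching a human gene, and fewer cells of a type and less RNA per cell cannot be told apart. Skeletal muscle genes had large differences at low levels. MYH4, a fast myosin heavy chain, had 1 read in control and 25 with exercise alone, against 485 with radiation alone and 417 in the combination, so the nearest values were 17.6-fold apart (exact 95% interval 11.8 to 27.5). MYH1 had 0, 11, 278 and 258 reads and MYH2 0, 14, 183 and 284 reads in the same order. These myosins lie side by side on chromosome 17 and are near-identical in part, their log2 differences of 6.23 to 6.84 depended on the 0.5 counts added before logs, and the calls were lost without the combination (adjusted p of 0.095 to 0.22) or radiation alone (0.066 to 0.14). The creatine kinase CKM had 0.056 and 0.318 CPM against 2.33 and 2.05 CPM and rose with any 1 library left out. Of 21 muscle markers 16 were tested, 12 were separated higher, 2 lower and 8 rose. Of the 16, 9 averaged under 20 reads on the unirradiated side, 6 of those that rose among them, and these passed the minimum only through the irradiated side, so the counts do not describe the list. The summed level of all 21 was 154 and 171 CPM unirradiated and 227 and 270 CPM irradiated. Without the combination library 2 of them were called and without radiation alone 5. The giant genes NEB and TTN had overlapping sides.

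Fibroblast markers went the other way. Of 13 listed genes 11 were tested, 10 were separated lower (90.9%, against 27.6% of all genes) and 4 fell (36.4%, against 3.0%). The summed level of the 13 was 464 and 566 CPM unirradiated against 342 and 296 CPM irradiated. COL1A1, a chain of type I collagen, was at 164 and 161 CPM against 99.3 and 81.2 CPM (-0.85 ± 0.15, adjusted p = 0.0014), and COL1A2 was at 100 and 107 CPM against 69.8 and 56.4 CPM (-0.72 ± 0.16). The specific markers PDGFRA, DCN and POSTN were at 0.519 to 4.48 CPM and did not pass the test. Without the combination library 2 members were called.

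Of 17 macrophage and neutrophil markers 6 were tested, 3 were separated higher (50.0%, against 26.2% of all genes) and 2 lower (33.3%, against 27.6%). Of the 6, 2 rose (33.3%, against 4.79%). Summed levels of the 17 were 376 and 367 CPM unirradiated against 433 and 498 CPM irradiated. CSF1R was separated lower, at 278 and 267 against 239 and 251 CPM (adjusted p = 0.39). ITGAM was also separated lower, at 7.09 and 8.54 against 5.52 and 6.17 CPM (adjusted p = 0.19). CD68, a lysosomal glycoprotein, was at 44.3 and 44.6 CPM against 101 and 110 CPM (1.25 ± 0.06, adjusted p = 2.4e-05). LYZ, lysozyme, was at 41.8 and 40.9 CPM against 81.8 and 124 CPM (1.28 ± 0.30, adjusted p = 0.013), and lost its call without control or exercise alone (adjusted p = 0.053 and 0.095). The defining markers C1QA, C1QB, C1QC, TYROBP and S100A8 had 0 reads in each library. Of 13 endothelial markers 3 were tested, and edgeR called 0 (1 had an unadjusted p under 0.05, and DESeq2 called 1). PECAM1 was at 18.3 and 14 CPM against 9.60 and 5.53 CPM (adjusted p = 0.057). ESAM and CD34, the other 2 tested, had overlapping sides at 1.29 CPM or less (adjusted p = 0.71 for each). Among 6 keratinocyte markers tested, KRT14, KRT5 and TP63 fell by 1.68 ± 0.30, 1.55 ± 0.41 and 0.57 ± 0.09 on the log2 scale, while COL17A1 rose by 1.30 ± 0.19. KRT5 averaged under 20 reads on the irradiated side and passed the minimum count only through the unirradiated side. KRT6A was at 43.9 and 88.5 CPM against 22.9 and 18.2 CPM (-1.61 ± 0.53, adjusted p = 0.19). The part of other cell types in the gene groups above was not tested.

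**Figure D5:**
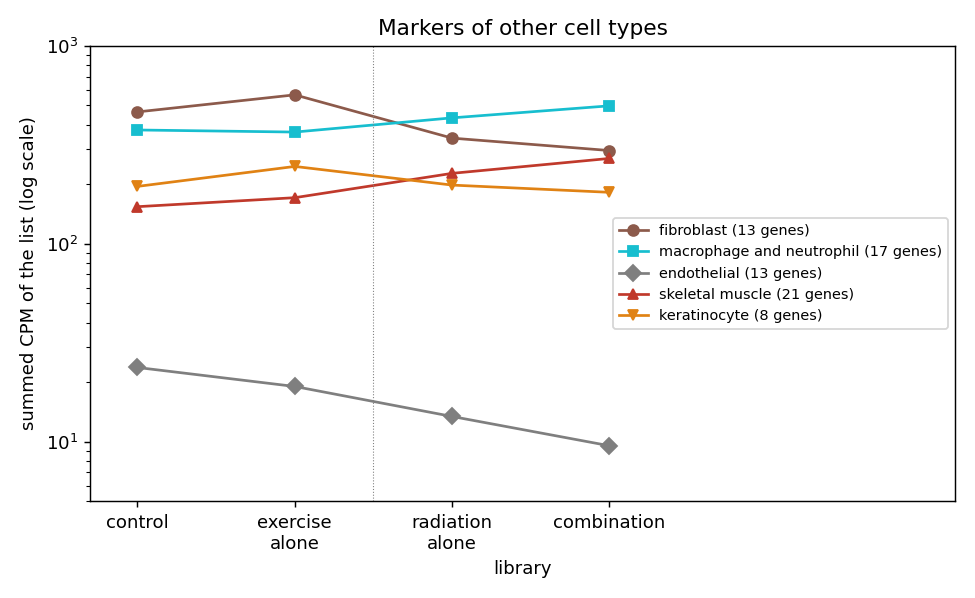
Summed CPM (log scale, y axis) of the marker lists of 5 other cell types in the 4 libraries (x axis), 1 point per list and library. Muscle and macrophage sums are higher in both irradiated libraries (227 and 270, and 433 and 498 CPM), while fibroblast and endothelial sums are lower (342 and 296, and 13.4 and 9.53 CPM).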

How the data were processed

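RNA of A549 xenografts was sequenced as 1 library per treatment group (4 libraries in all, as polyA-selected stranded pairs of 100 nt). According to the submitters' processing notes, reads were trimmed with cutadapt, aligned to GRCh38 with Bowtie2 2.3.4.1 and counted with featureCounts 1.6.0. The authors deposited raw read counts per gene, not normalized, and these were used here. The authors also deposited FPKM values, which were not used. Bowtie2 does not place reads across introns, so junction reads can be lost. How strand was set in counting, and how mouse reads were handled, is not given in the sources used here, so antisense genes and their partners may share reads.

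Counts were scaled with TMM (edgeR 4.0.16 in R 4.3.3, factors 0.9796 to 1.0319) and CPM were put on the log2 scale with a prior of 0.5 counts. Genes averaging at least 20 reads were kept. The side (irradiated or unirradiated) was the only term of a robust edgeR quasi-likelihood fit, with Benjamini-Hochberg adjustment over 19393 genes. The biological coefficient of variation was 0.0991, with 2 residual degrees of freedom. Intervals of the nearest gap are exact (Clopper-Pearson, 95%) and, like the 3 reads that a count of 0 allows (0.084 to 0.0916 CPM), cover counting error only. The steps were tested on simulated counts. Positions and promoters are RefSeq, GRCh38.p14, and promoters of chromosome 8 were not searched. Further steps used python 3.11.15, scipy 1.17.1, matplotlib 3.10.9, pandas 2.3.3 and numpy 2.4.6.

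The comparison, the 27 gene lists (5 of them markers of other cell types) and the rule for named genes were chosen with earlier results of these data known. Genes named are the 12 largest and 12 smallest differences among called genes averaging at least 100 reads, from each list up to 6 separated members and the 3 most-read unseparated ones, all members where a count was 5 or fewer, and CDKN1A, MDM2, MKI67, CA9, HIF1A and GDF15. The text gives part of these (some genes are not reported here), and a few other members and the genes of the closing section were chosen after their values were seen. Alternatives were DESeq2 1.42.0 (size factors and Wald test), total-count scaling, no minimum count and a minimum of 100, a prior of 2 counts, exercise as a second term, list means and leaving out each library. Set tests were not run.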

Additional observations from a re-analysis of the deposited data

Results flagged for a closer look

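The results below had opposite directions in the sedentary pair (radiation alone against control) and the exercised pair (combination against exercise alone). With 1 library per treatment group the difference between the pairs was not tested, and many of these ratios lie close to 0. Values are log2 ratios, the sedentary pair first. Of the list medians, heat shock genes had -0.08 and 0.02, genes of the mesenchymal transition had 0.04 and -0.05, and the endothelial markers had -0.70 and 0.08.

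E2F7, a repressor of E2F targets, had 0.15 and -1.03. CDKN1B, a cyclin-dependent kinase inhibitor, had -0.58 and 0.01. The ferritin chains had 0.06 and -0.24 (FTH1) and -0.04 and 0.50 (FTL). The mucins had 0.37 and -0.11 (MUC5AC) and 0.35 and -0.31 (MUC5B), the antiviral enzymes -0.06 and 0.00 (OAS1, a small rise before rounding) and -0.18 and 0.30 (OAS3), and the cytokines -0.24 and 0.14 (CXCL5) and 0.38 and -0.05 (LIF). The filament genes had -0.08 and 0.27 (KRT8) and 0.11 and -0.11 (VIM). Of p53-related genes, MDM4 had -0.09 and 0.01, PERP -0.09 and 0.22, TP53I3 0.01 and -0.15 and TP53BP1 0.00 and -0.04. RB1 had -0.03 and 0.18, the spindle checkpoint gene BUB3 0.00 and -0.02 and the repair gene RAD50 0.03 and -0.01. JUNB had -0.21 and 0.14, HSP90AA1 -0.10 and 0.21, NQO1 -0.26 and 0.06, ENO1 0.11 and -0.08, SHMT2 -0.11 and 0.02, ATG7 -0.04 and 0.04, NPC1 0.02 and -0.02 and TTN 0.34 and -0.01.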

How the results depend on the processing

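All 149 named genes that passed the test kept their direction under each alternative that gave a value. Of these, 148 remained called with DESeq2 size factors, 144 with total-count scaling, 140 with the DESeq2 Wald test, 146 with exercise as a second term and 79 through every omission of 1 library. Genes at 0.084 to 0.0916 CPM or less (3 reads) are below what this depth resolves.

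With nearest values at least 1.5-fold apart, 496 genes were separated higher and 318 lower, and with values apart beyond the exact counting interval 2332 and 1972. Over omissions of 1 library, separated genes numbered 6948 to 7679 higher and 7366 to 7730 lower, where 1 value of a side stands alone. Called genes numbered 1604 higher and 1157 lower with no minimum count, 895 lower with total-count scaling, and 357 to 1038 higher and 62 to 929 lower over omissions of 1 library.

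With no minimum count, 24 replication genes were called lower, and 17 interferon, 15 histone and 8 epithelial genes higher. Interferon calls were 5 with total-count scaling, epithelial calls 8 with the DESeq2 Wald test, and muscle calls 4 with a minimum of 100. Over omissions of 1 library, calls ranged from 0 to 24 for replication, 2 to 44 for mitosis, 0 to 17 for DNA repair, 0 to 28 for interferon, 4 to 9 for class I presentation, 9 to 12 for hypoxia, 7 to 15 for lysosome, 2 to 9 for histone, 0 to 5 for epithelial, 4 to 6 for noncoding RNA, 2 to 5 for fibroblast and 2 to 9 for muscle lists. The lowest of these came without the combination library, except for noncoding RNA (without radiation alone). Medians turned sign for secretory cytokines (-0.06, from -0.23 to 0.11 over omissions and 0.06 without radiation alone), immediate early genes (0.35, from -0.03 without control to 0.54) and macrophage and neutrophil markers (0.30, and -0.15 with a minimum of 100). The cause was not tested. No paired analysis by replicate number was possible because the labels give no replicate numbers.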

Other observations

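Some genes outside the lists rose in kinds that can be named, and all of those below were chosen after their values were seen, so their common direction is not evidence of a group effect. The secreted cystatins CST1, CST2 and CST4, protease inhibitors of one gene cluster, were higher in both irradiated libraries. CST1 was at 106 CPM in control and 77.7 with exercise alone, against 424 with radiation alone and 479 in the combination (log2 difference 2.31 ± 0.24, SE, n = 2 per side). CST4 and CST2 rose by 2.86 ± 0.47 and 2.52 ± 0.33 at 22 CPM or less, and reads of these near-identical genes may have been split between them. CST3, the cystatin that most tissues secrete, rose by 0.95 ± 0.11. REG4, a secreted lectin of mucosal epithelium, was at 79.9 and 67.2 CPM against 581 and 659 CPM (3.08 ± 0.15). Further mucosal genes rose with it: TFF2, a trefoil peptide (2.12 ± 0.48), DUOX2, a peroxide-generating oxidase (2.22 ± 0.13), PIGR, the transporter of secretory antibodies (1.91 ± 0.33), and BPIFB1, an airway secretory protein (1.88 ± 0.13). GAS6, a ligand of AXL family receptors, was at 6.69 and 9.23 CPM against 59.3 and 53.2 CPM (2.83 ± 0.24). Its antisense gene GAS6-AS1 rose by 3.06 ± 0.29, and the reads of this pair cannot be told apart without the strand setting.

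Genes of plasma proteins were higher as well, each with the combination as the highest library. SERPINA1, the protease inhibitor alpha-1-antitrypsin, was at 341 and 283 CPM unirradiated against 676 for radiation alone and 1020 for the combination (1.42 ± 0.32). The clotting factor F5 was at 158 and 141 CPM against 390 and 470 CPM (1.52 ± 0.16). The retinol carrier TTR rose by 2.15 ± 0.23, VTN, a matrix and plasma protein, by 1.37 ± 0.30, and the fibrinogen chain FGA by 0.94 ± 0.20. The liver transcription factor HNF4A was separated lower (101 and 109 against 86.7 and 91.4 CPM) and did not pass the edgeR test (adjusted p of 0.14).

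Among ligands and growth genes, the T cell costimulatory ligands TNFSF9 and CD70 rose by 1.77 ± 0.09 and 1.49 ± 0.30. The chemokine CX3CL1 was at 41.3 and 45.1 CPM against 18.6 and 13 CPM (-1.47 ± 0.27). The receptor kinase ROS1 (-1.42 ± 0.21), the chromatin protein HMGA2 (-1.22 ± 0.26), the hedgehog target GLI1 (-1.18 ± 0.27) and the growth factor binder IGFBP2 (-1.08 ± 0.29) fell.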
